A study of Mus musculus with 4 samples.

Results

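Neurons that transcribe Lhx6, a LIM homeodomain gene of the medial ganglionic eminence (MGE) lineage, were identified in libraries of the lateral (LGE) and caudal (CGE) ganglionic eminences of the mouse forebrain at E12.5. Members were LGE or CGE cells chosen by 3 measured values: a Dcx level above 1.5 on the scale ln(1 + UMIs per 10000), at least 1 UMI (unique molecular identifier) of Lhx6, and at least 1 UMI of Sst or Npy. The gate took 138 of 4810 quality-filtered LGE cells and 335 of 3248 CGE cells, 473 members in all out of 16544 filtered cells in the 4 libraries. In the MGE library 865 of 4852 cells passed the same gate ("MGE gate cells" below), and in the dorsal cortex (CTX) library 37 of 3634 did.

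Each region was represented by 1 droplet library of C57BL/6 wild-type tissue (genotype wt), dissected at the same age and pooled over embryos, with no allele or treatment that set any group apart. The labels describe a sort for live cells and the methods describe wild-type cells that were counted without a sort, and this was not settled. Since a region had 1 library, no difference between regions could be tested, the region and its library cannot be told apart, and every interval below covers counting error only. Kept barcodes shared between libraries numbered 2 for LGE and CGE and 6 to 8 for the other pairs, among them 2 CGE members whose barcodes also occurred in CTX, and 0 barcodes passed the gate in both libraries. Predicted doublets (10 of 138 LGE members, 8 of 335 CGE members and 45 of 865 MGE gate cells) were kept. Among all high-Dcx cells they numbered 80 of 2198 in the LGE, 41 of 2330 in the CGE and 71 of 2272 in the MGE. Their share was thus higher in gate cells than in high-Dcx cells of each of these libraries. Leaving them out gave shares of high-Dcx cells within the intervals below. A cell that had migrated into the LGE or CGE and an MGE cell carried over in dissection cannot be told apart either.

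Cortical interneurons and many striatal interneurons that contain somatostatin are born in the MGE, where the homeodomain factor Nkx2-1 switches on Lhx6. Cells bound for the cortex lose Nkx2-1 and keep Lhx6, while many striatal interneurons keep both, and the migrating cells travel tangentially through the LGE and CGE, guided by neuropilin, plexin, Eph, Erbb4 and chemokine receptors. Sst and Npy, which encode the neuropeptides somatostatin and neuropeptide Y, are transcribed in subsets of these neurons, and Dcx (doublecortin) binds microtubules in migrating neuroblasts.

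The promoters of the peptide genes that let cells in, and of Epha5, an Eph receptor gene of the migration list with a wide difference from neighbouring cells, are shown as the 250 bases before the RefSeq start (GRCm38.p6), 5′ to 3′ on the strand of the gene. Capitals mark exact matches on either strand to TAATTA, the core bound by LIM homeodomain proteins, or to TGACGTCA, the cAMP response element, which do not overlap. Among 32851 RefSeq windows of this length, 4.84% held the first motif and 1.55% the second. A match is given as a description of the letters in the window.
Sst, chr16:23890845-23891094, minus strand: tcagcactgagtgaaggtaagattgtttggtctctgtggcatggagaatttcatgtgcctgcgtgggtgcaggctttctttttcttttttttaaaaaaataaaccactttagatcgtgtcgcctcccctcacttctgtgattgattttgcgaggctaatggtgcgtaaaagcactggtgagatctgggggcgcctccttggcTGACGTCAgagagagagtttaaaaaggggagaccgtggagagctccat
Npy, chr6:49822460-49822709, plus strand: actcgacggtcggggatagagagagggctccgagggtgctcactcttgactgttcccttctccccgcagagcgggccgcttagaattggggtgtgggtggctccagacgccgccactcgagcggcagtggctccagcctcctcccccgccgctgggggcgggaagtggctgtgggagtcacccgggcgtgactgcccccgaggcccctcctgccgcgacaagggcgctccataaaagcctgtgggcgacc
Epha5, chr5:84417383-84417632, minus strand: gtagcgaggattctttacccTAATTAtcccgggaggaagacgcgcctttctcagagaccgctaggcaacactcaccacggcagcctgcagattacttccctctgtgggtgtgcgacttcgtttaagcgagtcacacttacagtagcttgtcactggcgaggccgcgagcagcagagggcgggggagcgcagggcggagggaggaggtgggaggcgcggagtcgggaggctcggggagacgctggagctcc

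The Sst window held the cAMP response element, from 48 to 41 bases before the start. The Epha5 window held TAATTA, from 230 to 225 bases before the start. The Npy window held neither motif.

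Members made up 6.28% of the 2198 high-Dcx cells of the LGE (95% Clopper-Pearson interval 5.30 to 7.37) and 14.4% of the 2330 of the CGE (13.0 to 15.9). The same share was 38.1% in the MGE (36.1 to 40.1) and 4.53% in CTX (3.21 to 6.20). High-Nes cells (Nes above 1.5 on the same scale) served as a background rich in radial glia, though a gate on Nes only does not exclude other cells. In them Lhx6 occurred together with Sst or Npy in 0.299% of LGE, 1.65% of CGE and 3.45% of MGE cells. Those cells were deeper, with median UMIs of 8139, 9154 and 9751. The medians were 6127 in LGE members, 6928 in CGE members and 6309 in MGE gate cells. When each cell was thinned to 3000 UMIs, the shares of high-Dcx cells were 4.28% in the LGE, 7.80% in the CGE, 25.3% in the MGE and 2.50% in CTX, so the order of the 4 regions was the same at both depths. The intervals of the LGE and CTX overlapped, and the CGE and MGE stood apart from both and from each other.

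Lhx6 on its own was detected in 191 LGE and 628 CGE high-Dcx cells. Of these, 72.3% of LGE cells (65.3 to 78.5) and 53.3% of CGE cells (49.4 to 57.3) also carried Sst or Npy and were members, against 46.3% in the MGE (44.0 to 48.6). Sst or Npy also occurred without Lhx6, in 5.03% of the 2007 LGE and 11.4% of the 1702 CGE high-Dcx cells that had 0 Lhx6 UMIs.

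The threshold sat close to many members. A single Lhx6 UMI let in 48 LGE members (34.8%) and 138 CGE members (41.2%), and a single UMI of the peptide genes let in 15 and 57. Just outside were 53 LGE and 293 CGE high-Dcx cells with Lhx6 but neither peptide. Within 0.1 of the Dcx limit, 6 LGE and 5 CGE cells fell just below it, and 0 LGE and 13 CGE members lay just above. The Dcx level of LGE members ran from 1.60 to 3.17 with a median of 2.32, and that of CGE members from 1.50 to 3.15 with a median of 2.31.

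**Figure D1:**
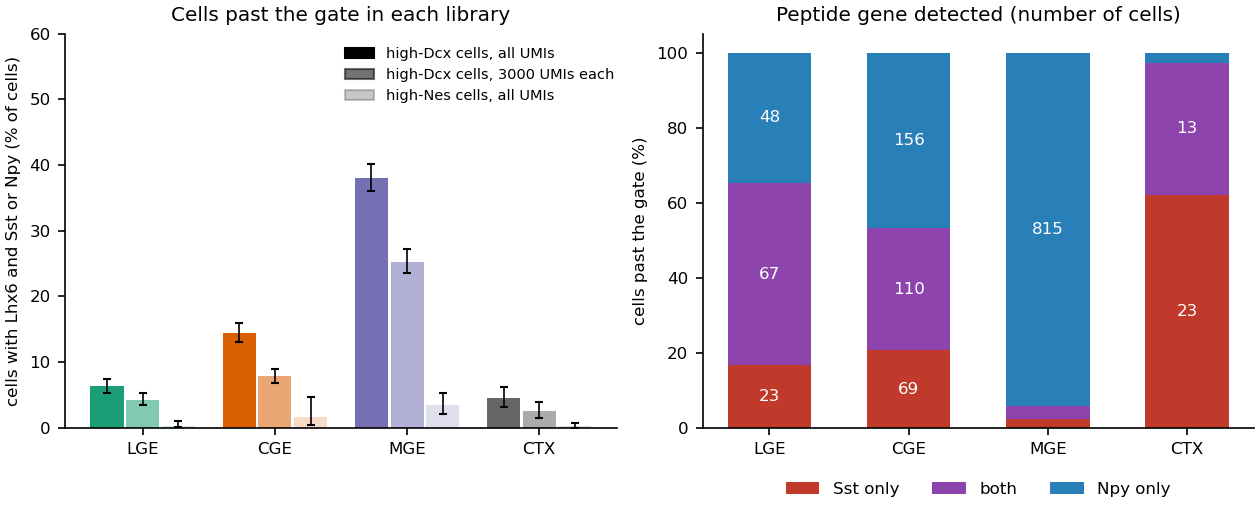
Left, cells with Lhx6 and with Sst or Npy as a percentage of high-Dcx cells (all UMIs, then 3000 UMIs per cell) and of high-Nes cells in each library, with 95% Clopper-Pearson intervals. Right, the split of the cells past the gate by the peptide gene detected, with cell numbers inside the bars. The CGE share (14.4%) lies between those of the LGE (6.28%) and the MGE (38.1%), and 815 of 865 MGE gate cells carried Npy alone.

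The 2 peptides were used by the rule and are given as a description. Sst summed to 2641 CPM (counts per 1000000 UMIs of the group) in LGE members and 2083 in CGE members, against 138 in MGE gate cells, and Npy to 1490, 748 and 989 CPM. Among LGE members 23 carried Sst alone, 48 Npy alone and 67 both. Among CGE members the numbers were 69, 156 and 110. MGE gate cells were almost all let in by Npy, with 20, 815 and 30 cells, whereas the 37 cortical cells carried mostly Sst, with 23, 1 and 13. At 3000 UMIs per cell Sst was detected in 60.9% of LGE members, 47.9% of CGE members, 4.94% of MGE gate cells and 85.3% of CTX gate cells. The highest Sst count in 1 cell was 171 UMIs in the LGE, 223 in the CGE and 112 in the MGE.

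Markers that the rule did not use were examined next. Maf and Nxph1 belong to the marker set defined for Lhx6 neurons and are tied to Lhx6. They describe the cells chosen and are no independent check of the label. Maf, a transcription factor of MGE-derived interneurons, or Nxph1, a secreted neurexin ligand of the same cells, was detected in all but 3 of 138 LGE members and all but 36 of 335 CGE members. At 3000 UMIs Nxph1 was found in 75.2% of LGE and 71.6% of CGE members, against 2.34% and 8.98% of the Lhx6-negative high-Dcx cells of the same libraries and 0.155% and 1.13% of their high-Nes cells. GABAergic genes were present. Gad2, which makes GABA, was at 552 CPM in the LGE members and 516 CPM in those of the CGE. Slc32a1, the vesicular GABA transporter, was at 306 and 261 CPM. In the Lhx6-negative cells Gad2 was at 643 and 486 CPM and Slc32a1 at 190 and 215 CPM. Both genes were thus within 2-fold of the members and did not set them apart.

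Markers of other cell types were counted per cell, and a limit given for a count of 0 is one on cells with a UMI, not on cells that express the gene. The 6 glutamatergic genes (Neurod1, Neurod2, Neurod6, Tbr1, Slc17a6 and Slc17a7) had no UMI in any LGE member, which allows a share of cells with a UMI of up to 2.17%, and summed to 2.53 CPM in CGE members. The 5 microglial or macrophage genes were at 0 in both, which allows cells with a UMI to be up to 2.17% of LGE and 0.896% of CGE members, whereas 9 of 865 MGE gate cells had at least 1 and 3 of them had 3 or more. At least 1 red blood cell gene was seen in 50 of 138 LGE and 40 of 335 CGE members, with the list summing to 77.0 and 18.1 CPM, and at least 1 Cajal-Retzius gene in 26 and 24 members. At least 1 endothelial gene was seen in 2 and 3 members and at least 1 pericyte gene in 1 and 7. No member had 3 or more genes of these 4 lists. At least 1 of 6 radial glia genes was seen in 130 LGE and 326 CGE members and at least 3 in 11 and 39, and this list includes Sox2, at 733 and 864 CPM in members. The part of these cells in the results below was not tested.

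The members were next set against Lhx6-negative high-Dcx cells of their own library, a comparison that holds the library constant. A count of 0 Lhx6 UMIs does not exclude transcription, since 34.8% of LGE and 41.2% of CGE members had a single UMI. Lhx6-negative cells held Nxph1 at 12.9 CPM in the LGE and 57.6 CPM in the CGE, and Nkx2-1 at 0.908 and 12.4 CPM. The part of missed Lhx6 cells in the ratios below was not tested. MGE lineage factors and interneuron precursor genes were higher in members of both regions, and striatal projection neuron genes were lower. A gene was called here when its CPM ratio passed 2-fold (pseudocount 1 CPM) among genes at 50 CPM or more in either group. In the LGE 190 of 4093 genes (4.64%) were higher and 233 (5.69%) lower in members, and in the CGE 65 of 3959 (1.64%) were higher and 85 (2.15%) lower. The median log2 ratio over all these genes was 0.02 in the LGE and 0.00 in the CGE.

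Of 11 measured MGE lineage factors, 9 were more than 2-fold higher and 0 lower in LGE members, with a median log2 ratio of 2.73. In CGE members 7 of 9 were higher and 0 lower, with a median of 1.31. This list is tied to Lhx6, which the rule used, so its direction is a description of the cells chosen. Maf was at 546 CPM in LGE members and 15.8 CPM in their Lhx6-negative neighbours, a ratio of 34.6 (29.5 to 40.7), and at 284 and 38.7 CPM in the CGE, a ratio of 7.34 (6.51 to 8.28). Sox6, needed for the maturation of MGE interneurons, was 23.4-fold higher in the LGE (19.4 to 28.2) and 2.50-fold in the CGE (2.27 to 2.75). Satb1, a chromatin organizer of Sst interneurons, was 3.73-fold and 2.40-fold higher, and Zeb2, which steers MGE cells to the cortex, 2.50-fold and 2.49-fold. In these genes the Lhx6-negative cells of the CGE had higher levels than those of the LGE, for example 107 against 13.8 CPM of Sox6.

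Among interneuron precursor genes other than the rule genes, 5 of 7 in the LGE and 5 of 8 in the CGE were past 2-fold higher (Nxph1, Erbb4, Calb1, Gria1 and Gria4 in each), and 1 was lower, Tac1 in the LGE and Ptprz1 in the CGE. Nxph1 was at 633 CPM in LGE members and 12.9 CPM in Lhx6-negative cells, 49.2-fold higher (41.6 to 58.5), and at 514 and 57.6 CPM in the CGE, 8.93-fold higher (8.13 to 9.82). Erbb4, the neuregulin receptor of migrating interneurons, was 23.0-fold higher in the LGE (18.2 to 29.2) and 4.45-fold in the CGE (3.96 to 5.01). Gria4, an AMPA receptor subunit gene, was 21.5-fold and 5.16-fold higher. Calb1, the calcium buffer calbindin, was 6.55-fold and 5.60-fold higher.

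Migration receptors divided. Of the 12 measured in the LGE, 4 were higher and 1 lower, and of the 18 in the CGE 4 were higher and 2 lower. The medians were 0.43 and 0.10. The higher LGE genes included the ligand gene Efnb3, and the lower one was the ligand gene Nrg1. Ackr3, the atypical receptor that binds the chemokine Cxcl12, was at 336 CPM in LGE members against 30.9, 10.9-fold higher (9.33 to 12.6), and at 181 against 24.2 in the CGE, 7.47-fold higher (6.42 to 8.69). Epha5 was 7.83-fold (7.41 to 8.27) and 2.82-fold higher (2.74 to 2.91). The signalling receptor Cxcr4 was sparse, under the 50 CPM limit, with UMIs in 11 of 138 LGE and 53 of 335 CGE members. At 3000 UMIs Cxcr4 was found in 4.51% and 7.78% of members, against 0.762% and 1.50% of Lhx6-negative cells and 2.64% and 0.565% of high-Nes cells, and the LGE intervals for members (1.67 to 9.56) and high-Nes cells (1.54 to 4.19) overlapped. Nrp1, a semaphorin receptor, was lower in CGE members, at 25.7 against 55.9 CPM, and Cxcl14, a chemokine gene of CGE interneurons, at 10.1 against 96.7 CPM.

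Striatal projection genes were lower in members for 9 of 10 measured genes in the LGE and 7 of 8 in the CGE, with medians of -3.46 and -3.47. Meis2, a homeobox gene of LGE-derived neurons, was at 240 CPM in LGE members and 2867 CPM in Lhx6-negative cells, 11.9-fold lower (10.4 to 13.7), and at 74.3 and 986 CPM in the CGE, 13.3-fold lower (11.4 to 15.5). Meis2 was uneven among members, with UMIs in 37 of 138 LGE members, a median of 0 and a highest count of 43, whereas the median Lhx6-negative LGE cell had 19.0. In the CGE 51 of 335 members had Meis2, with a highest count of 32. Ebf1, a factor of striatonigral neurons, was 12.2-fold lower in the LGE (8.99 to 16.9) and 12.8-fold in the CGE (8.98 to 18.9). Isl1, a LIM homeodomain gene of the same neurons, was 18.1-fold and 14.9-fold lower. Bcl11b, which striatal and MGE-derived neurons share, was within 2-fold, at 983 against 1161 CPM in the LGE and 679 against 849 CPM in the CGE.

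Of 7 measured CGE genes in the CGE library, 4 were past 2-fold lower in members, 0 higher and 3 within 2-fold, with a median of -2.32. The lower genes were Prox1, Sp8, Cxcl14 and Rmst, a noncoding RNA gene that was 11.2-fold lower (7.59 to 17.4). Prox1, the homeobox gene of CGE interneurons, was 5.10-fold lower in members (4.11 to 6.39), at 36.7 against 187 CPM, and Sp8, a zinc finger gene of LGE and CGE lineages, 13.5-fold lower (8.29 to 23.7). Nr2f2, the nuclear receptor COUP-TFII, was within 2-fold of the Lhx6-negative cells at 473 against 695 CPM, 1.47-fold lower (1.38 to 1.57). Nr2f1 (COUP-TFI) was also within 2-fold, at 1363 against 1487 CPM. The CGE members thus carried Nr2f1 and Nr2f2 within 2-fold of their neighbours while Prox1, Sp8, Cxcl14 and Rmst were past 2-fold lower.

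Progenitor and cell cycle genes were lower in members, for 10 of 14 in the LGE and 7 of 11 in the CGE. Ccnd2 (cyclin D2) was at 99.2 against 1361 CPM in the LGE and 49.4 against 221 CPM in the CGE. Maturation genes lay nearer to 0, with medians of 0.33 and 0.09. In this list 4 genes were higher in the LGE (Mapt, Syt1, Tubb2a and Ina) and 3 lower (Nefl, Nefm and Gap43). In the CGE 1 was higher (Syt1) and 2 lower (Nefm and Gap43).

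**Figure D2:**
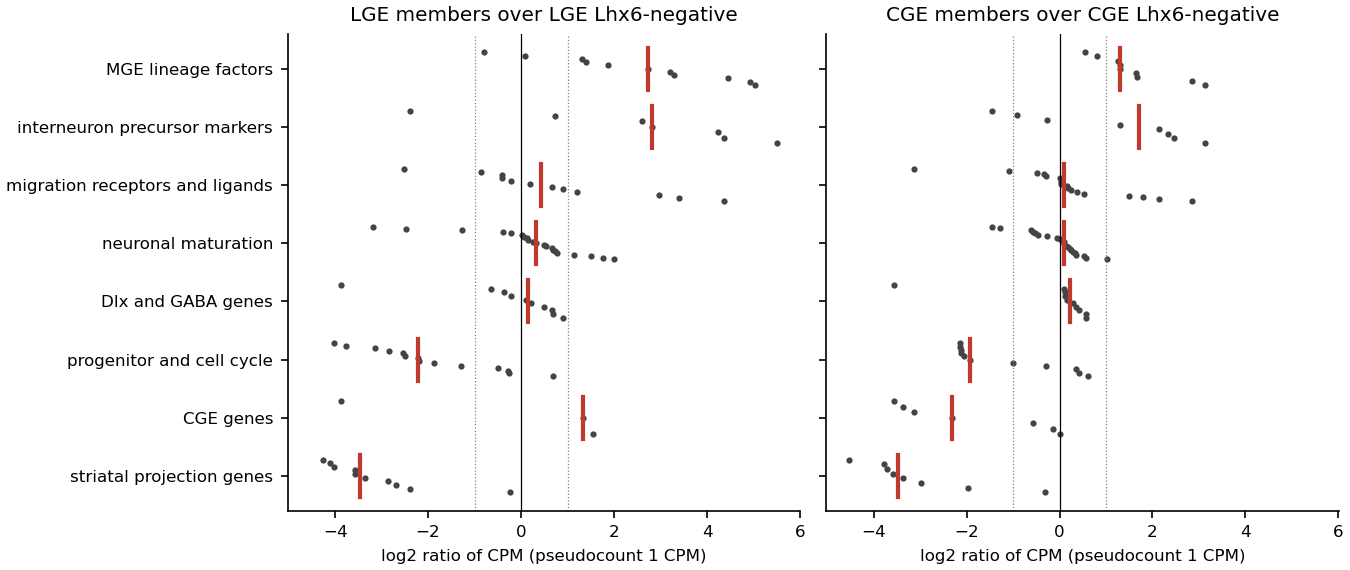
Each point is a gene at 50 CPM or more in either group, placed by the log2 ratio of its CPM in members over Lhx6-negative high-Dcx cells of the same library, LGE left and CGE right. Red bars are list medians and dotted lines the 2-fold limits. MGE lineage factors have medians of 2.73 and 1.31 and striatal projection genes of -3.46 and -3.47.

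The 2 libraries were compared through the 3702 genes tested in both. Both contrasts used the same rule, so the sharing of genes tied to Lhx6 is a description of the cells chosen. Of 151 genes higher in LGE members and 52 higher in CGE members, 46 were shared, which is 30.5% of the LGE genes and 88.5% of the CGE genes. Of the 132 and 70 lower genes, 65 were shared, 49.2% and 92.9%, and 0 were past 2-fold in opposite directions. Ranked by the smaller of the LGE and CGE ratios, the genes highest in both were Nkx2-1, Nxph1, Kitl, Ackr3, Maf, Epb4.1l4a, Dlgap1, Calb1, Gria4 and Erbb4. Kitl, the ligand of the Kit receptor, was 9.81-fold higher in LGE members (7.93 to 12.1) and 8.42-fold in CGE members (6.70 to 10.6). Dlgap1, a postsynaptic scaffold gene, was 18.2-fold and 6.01-fold higher. The lowest in both were Zfp503, Isl1, Ebf1, Sp8, Meis2, Zfhx4, Zfhx3, Six3, RP24-111C16.1 and Six3os1. Zfp503, a zinc finger gene of the striatum, was 17.3-fold lower in the LGE (10.3 to 31.7) and 35.9-fold in the CGE (13.9 to 132).

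Nkx2-1 (chr12:56531958-56536908, GRCm38) was lower in the members than in MGE gate cells. It summed to 57.2 CPM in LGE members (42.3 to 75.6) and 117 CPM in CGE members (104 to 132), against 610 CPM in MGE gate cells (590 to 631). The ratios to the MGE were 0.0937 for the LGE (0.0692 to 0.124), or 10.7-fold lower, and 0.192 for the CGE (0.170 to 0.217), or 5.20-fold lower. Per cell, Nkx2-1 ran from 0 to 7 UMIs with a median of 0 in the LGE, from 0 to 17 with a median of 0 in the CGE, and from 0 to 23 with a median of 3 in the MGE. The ranges of single cells overlapped. The groups differed in how many cells had the transcript and in the higher counts, with 90th percentiles of 1, 3 and 10 UMIs.

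At 3000 UMIs Nkx2-1 was detected in 7.52% of LGE members (3.66 to 13.4), 16.2% of CGE members (12.4 to 20.6) and 63.9% of MGE gate cells (60.6 to 67.2). Without thinning the shares were 15.9%, 26.9% and 76.0%. The transcript was still more frequent in members than in Lhx6-negative cells of the same library, of which 0.305% and 1.97% had it at 3000 UMIs, and by CPM it was 63.0-fold higher in LGE members (33.6 to 127) and 9.47-fold in CGE members (7.73 to 11.6). In the 37 CTX gate cells 1 UMI was counted. High-Nes cells of the CGE held Nkx2-1 in 7.34% of cells at 3000 UMIs (3.97 to 12.2), and those of the LGE in 0 of 645, which allows a share of cells with a UMI of up to 0.465%.

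The 22 LGE and 90 CGE members with an Nkx2-1 UMI were set beside the other members of their library. Epha5 was lower in them, with a ratio of 0.661 in the LGE (0.571 to 0.763) and 0.542 in the CGE (0.509 to 0.578). Meis2, which few members carried, was lower, with ratios of 0.470 (0.268 to 0.773) and 0.376 (0.234 to 0.581), and Zeb2 too, with 0.439 (0.324 to 0.583) and 0.721 (0.648 to 0.801). Etv1, an ETS factor gene of the MGE, was 7.33-fold higher in Nkx2-1-positive CGE members (3.84 to 14.9) and had a ratio of 1.18 in the LGE (0.502 to 2.46). Mapt did not differ beyond counting error, with ratios of 0.965 (0.783 to 1.18) and 0.912 (0.826 to 1.01). Median depths were 6400 against 6072 UMIs in the LGE and 7414 against 6639 in the CGE, and the part of depth in this split was not tested.

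Lhx8 (chr3:154306294-154330659), a LIM homeodomain gene of cholinergic and pallidal neurons of the MGE, differed between the members of the 2 regions. It was at 72.4 CPM in LGE members, 2.95 CPM in CGE members and 222 CPM in MGE gate cells, and its UMIs were found in 23 of 138, 5 of 335 and 275 of 865 cells. The LGE ratio to the MGE was 0.325 (0.248 to 0.420) and the CGE ratio 0.0133 (0.00533 to 0.0274). In the LGE, Lhx8 and Nkx2-1 occurred together in 7 members, Lhx8 alone in 16, Nkx2-1 alone in 15 and neither in 100. By CPM, Nkx2-1 was 4.24-fold higher in LGE members with Lhx8 than in those without (2.29 to 7.73). LGE members with Lhx8 had less Nr2f1, 1 UMI against 130 in the other members, with a ratio of 0.0434 (0.00109 to 0.246), and more Robo1, an axon guidance receptor gene, 5.21-fold (2.87 to 9.45).

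**Figure D3:**
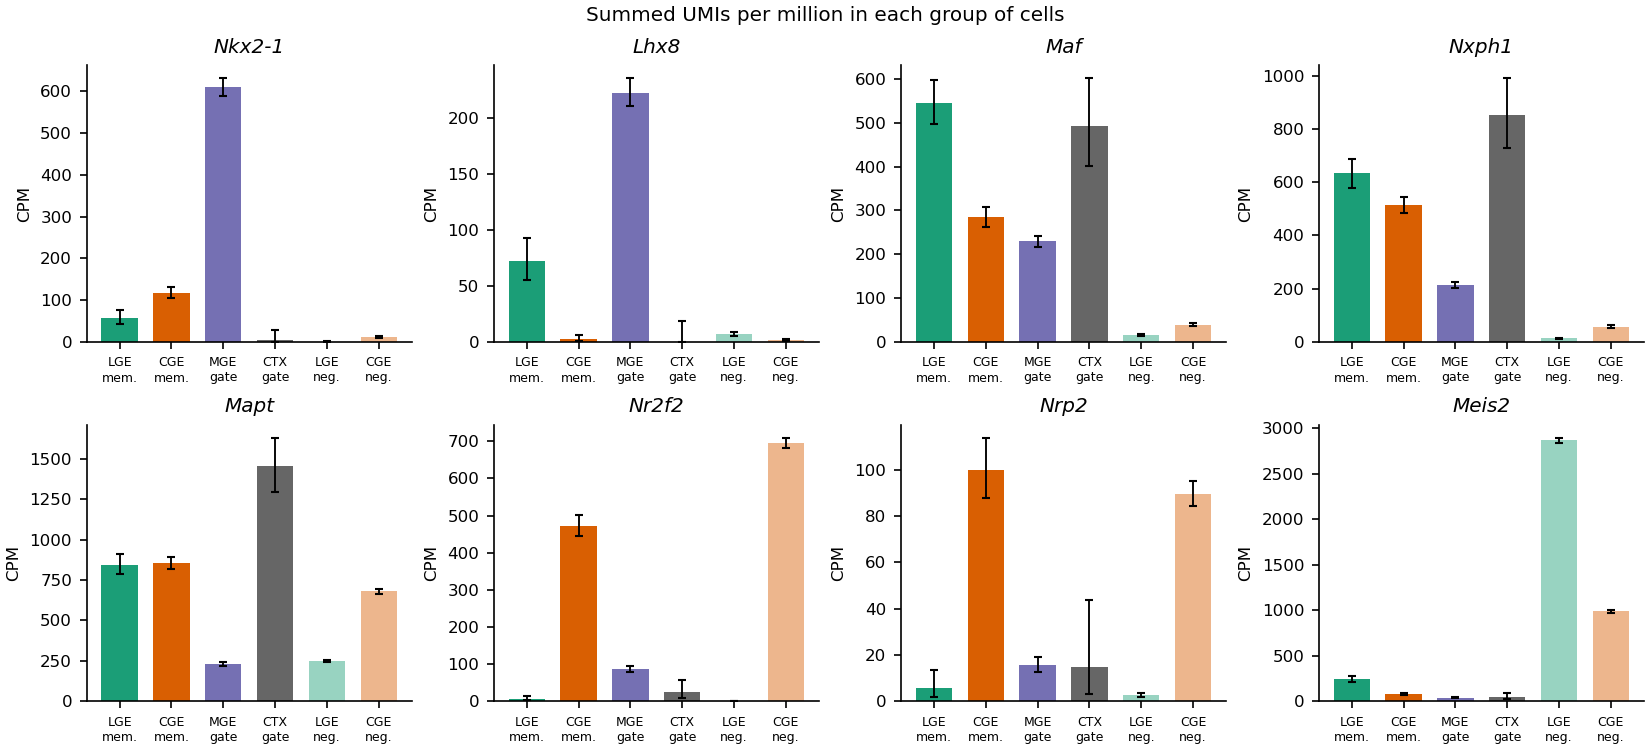
Summed CPM of 8 genes in LGE and CGE members (mem.), in MGE and CTX cells past the same gate, and in Lhx6-negative high-Dcx cells of the LGE and CGE (neg., pale bars), with exact Poisson 95% intervals on linear axes. Nkx2-1 is at 57.2 and 117 CPM in members and 610 CPM in MGE gate cells, and Nr2f2 and Nrp2 are high in both CGE groups.

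Across all genes, 128 of 4005 (3.20%) were higher and 115 (2.87%) lower in LGE members than in MGE gate cells, and 108 of 3953 (2.73%) were higher and 100 (2.53%) lower in CGE members. Both comparisons used the same MGE cells, so their values are given side by side and no overlap is drawn from them. The median log2 ratio over all genes was 0.02 and -0.00. Leaving out Nkx2-1 and Lhx8, the MGE lineage list held 1 more lower gene in each region, Etv1, with 57.2 CPM in the LGE and 22.4 CPM in the CGE against 119 CPM. Higher in the LGE were Cux2, a cut homeobox gene, 4.47-fold (3.71 to 5.38) at 225 against 50.3 CPM, and Maf, 2.38-fold (2.14 to 2.65). Satb1 was 2.04-fold higher in CGE members (1.84 to 2.26). Sox6 was within 2-fold, at 322, 267 and 340 CPM.

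Several maturation genes were higher than in MGE gate cells and none was past 2-fold lower. Of 20 measured in the LGE, 6 were more than 2-fold higher and 0 lower, and of 19 in the CGE 7 were higher and 0 lower, with medians of 0.47 and 0.62. Mapt, the microtubule protein tau, was at 846 CPM in LGE members, 855 CPM in CGE members and 228 CPM in MGE gate cells, a ratio of 3.71 (3.38 to 4.06) and of 3.75 (3.49 to 4.02). The median cell had 5.00 Mapt UMIs in both groups of members and 1.00 in the MGE. Tubb2a, a tubulin gene, was 2.70-fold and 3.68-fold higher, Ina, the neurofilament alpha-internexin, 2.37-fold and 3.59-fold, and the sodium channel gene Scn3a 2.77-fold and 2.47-fold. Stmn2, a microtubule regulator, was past 2-fold only in the LGE, at 1529 and 1046 CPM against 600 CPM. Rbfox3, the nuclear antigen NeuN, was past it only in the CGE, at 30.3 and 71.7 CPM against 24.9 CPM.

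Progenitor and cell cycle genes were lower than in MGE gate cells, for 6 of 9 genes in the LGE and 6 of 10 in the CGE, with medians of -1.75 and -1.85. Ube2c, a ubiquitin enzyme of mitotic exit, was at 42.0 and 50.2 CPM against 431 CPM, and Vim (vimentin) at 71.2 and 146 CPM against 459 CPM. Mitotic genes also filled the ranks of genes lowest in both regions against the MGE (Hmmr, Ube2c, Cenpa, Ccnb1, Cdc20, Tpx2, Cks2, Sgol2 and Cdk1), with Mfap4, a matrix protein gene, as the exception. Fabp7, a radial glia gene, was 3.71-fold higher in CGE members (3.17 to 4.34), at 171 against 46.1 CPM. Fabp7 was also at 6396 CPM in high-Nes cells of the CGE, against 1520 CPM in those of the MGE, and the part of free RNA in this ratio was not tested.

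The genes highest in both regions against the MGE were Gria1, Jph4, Pcdh8, Mpped1, C1qtnf4, Nkain3, Syt16, Mef2c, Mapt and Plk2. Gria1, an AMPA receptor subunit gene, was at 162 CPM in LGE members and 127 CPM in CGE members against 7.51 CPM, a ratio of 21.6 (15.3 to 31.1) and of 16.9 (12.3 to 23.8). At 3000 UMIs Gria1 was found in 26.3%, 22.2% and 1.76% of cells. Mef2c, a transcription factor of postmitotic interneurons, was 3.90-fold (3.14 to 4.82) and 4.80-fold higher (4.11 to 5.63). Nxph1 was 2.97-fold and 2.41-fold higher and Gria4 2.13-fold and 2.38-fold.

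Migration receptors and ligands showed both directions. In the LGE 1 of 13 was higher and 3 lower, and in the CGE 6 of 16 were higher and 2 lower, with medians of 0.17 and 0.42. Epha5 was at 2224 CPM in LGE members, 2681 CPM in CGE members and 669 CPM in MGE gate cells, 3.32-fold (3.14 to 3.51) and 4.00-fold higher (3.85 to 4.17). Epha4, another Eph receptor, was lower, 3.46-fold in the LGE (3.01 to 4.00) and 2.39-fold in the CGE (2.22 to 2.58). Plxna4, a semaphorin coreceptor, was at 16.3 and 23.6 CPM against 103 CPM, 6.30-fold lower (3.72 to 11.6) and 4.36-fold lower (3.31 to 5.83). Erbb4 was 1.94-fold (1.63 to 2.30) and 2.19-fold higher (1.95 to 2.47), the interval of each crossed the 2-fold limit, and the LGE ratio was below 1 among Sst-positive cells. Cxcr4 was at 15.2, 29.5 and 4.95 CPM, so its values rest on few UMIs, and its LGE ratio was also below 1 among Sst-positive cells. Nrp2, the neuropilin that binds class 3 semaphorins, was at 5.84, 100.0 and 15.7 CPM, 6.37-fold higher in the CGE (4.99 to 8.19) and on 5 UMIs in the LGE. Among Sst-positive cells, 0 of 15 genes of this list were past 2-fold higher in the LGE and 3 were lower (Nrp2, Epha3 and Epha4). In the CGE 1 of 15 was then higher (Gabra2) and 1 lower (Epha4). Nrp2 was thus not past 2-fold in the CGE among these cells, and Plxna4 was called in neither region.

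Sst was carried by 50 of 865 MGE gate cells, against 90 of 138 LGE and 179 of 335 CGE members. When all groups were limited to Sst-positive cells, a choice made after the values had been seen that changes the members as well as the MGE cells, the maturation median was -0.03 in the LGE and 0.26 in the CGE, with 2 and 0 genes past 2-fold higher and 1 and 0 lower. The migration median was -0.30 and 0.05, and the progenitor median -0.65 and -0.74. Over all genes 2.28% were higher and 2.25% lower in the LGE, and 0.968% and 1.34% in the CGE. Mapt was then at 964 and 1116 CPM against 849 CPM, a ratio of 1.14 (0.984 to 1.31) and of 1.31 (1.16 to 1.50). Epha5 had ratios of 0.931 (0.845 to 1.03) and 1.60 (1.47 to 1.74), and Nxph1 of 1.22 and 1.20. Erbb4 had a ratio of 0.874 in the LGE (0.653 to 1.17) and 1.11 in the CGE (0.871 to 1.44), and both intervals included no difference. Cxcr4 turned direction in the LGE, with 5 UMIs and a ratio of 0.300 (0.0805 to 0.964), and was 1.25 in the CGE (0.624 to 2.79).

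Nkx2-1 and Gria1 kept their direction in that comparison. Nkx2-1 was at 57.2 and 96.0 CPM against 295 CPM, a ratio of 0.194 in the LGE (0.127 to 0.290) and 0.326 in the CGE (0.249 to 0.428). Gria1 was 2.72-fold (1.64 to 4.73) and 3.54-fold higher (2.22 to 5.99). With the cells limited instead to those with Npy, the maturation medians were 0.52 and 0.59 and the migration medians 0.13 and 0.45.

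**Figure D4:**
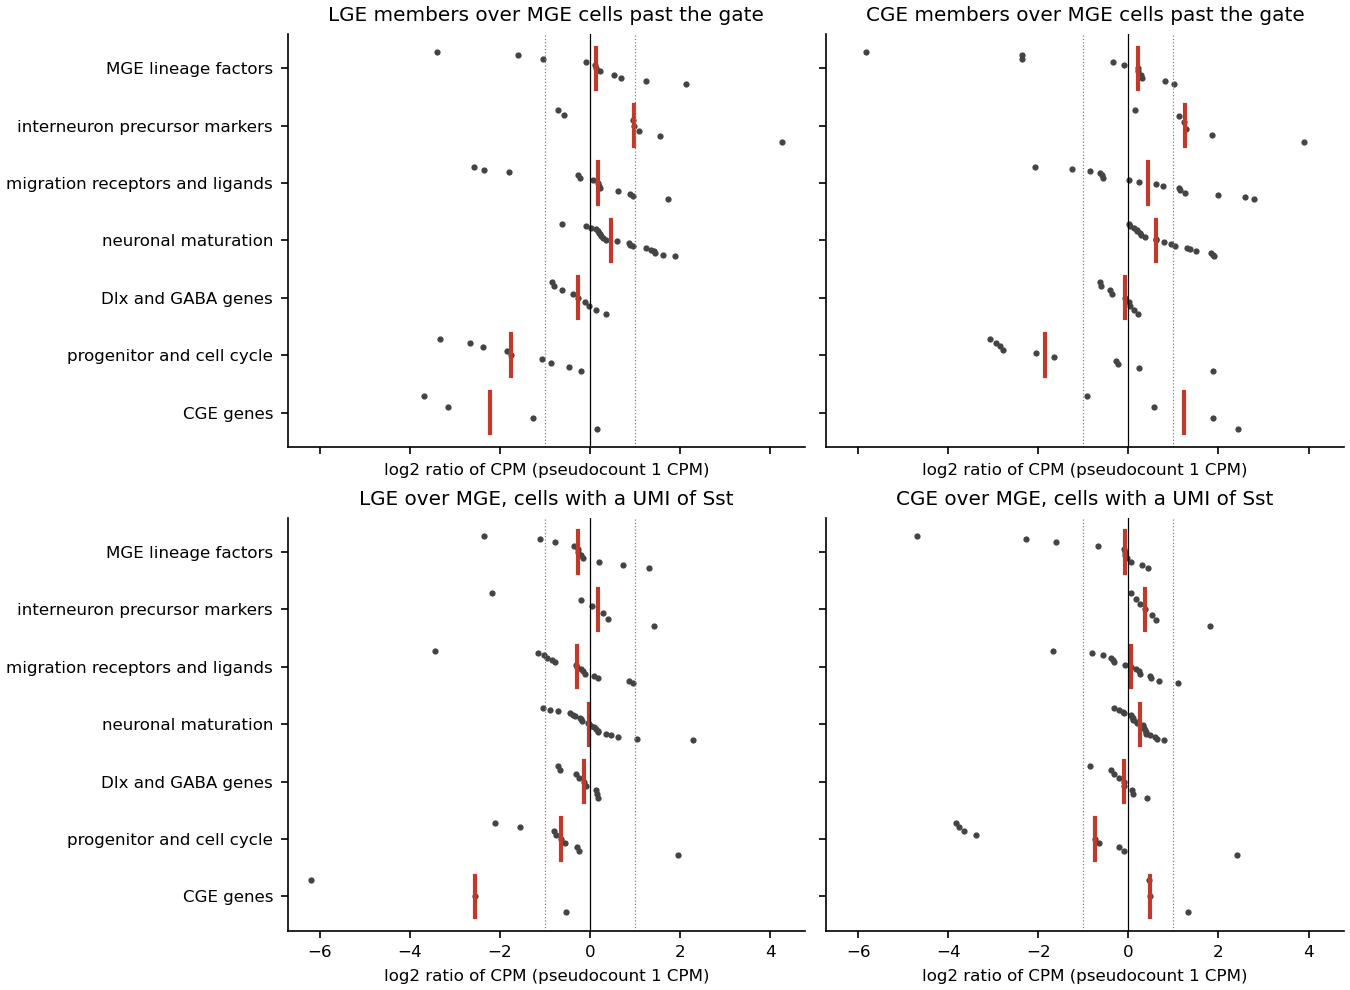
Log2 ratios of CPM of LGE (left) and CGE (right) members over MGE gate cells, 1 point per listed gene at 50 CPM or more in either group, with all cells (top) and with Sst-positive cells of each group (bottom). Red bars are medians and dotted lines the 2-fold limits. The maturation medians of 0.47 and 0.62 lie at -0.03 and 0.26 among Sst-positive cells.

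Members of the 2 regions differed past 2-fold in few of 3979 genes, with 55 (1.38%) higher in the LGE and 42 (1.06%) lower. Genes with the largest ratios on the LGE side included Lhx8, Nxph2, Kctd4, Cacng3, Pou3f1, Rprm and Prkcq. Lhx8 was 24.5-fold higher (11.2 to 63.4), and Nxph2, a paralogue of Nxph1, 11.6-fold (6.64 to 21.4) at 78.2 against 6.75 CPM. Among Lhx6-negative cells Lhx8 was also higher in the LGE, at 6.99 against 1.75 CPM, and Nxph2 was at 1.75 against 0.914 CPM. Nxph2 was at 1.37 CPM in MGE gate cells and 309 CPM in CTX gate cells. Rprm, a p53 target that halts the cell cycle, was at 675 CPM in LGE members and 109 CPM in CGE members. Pou3f1, a POU domain factor gene, was at 93.4 against 13.9 CPM, and among Lhx6-negative cells at 765 against 141 CPM, a difference in the same direction. Lhx6-negative cells differed the other way for Rprm, at 21.8 CPM in the LGE and 58.8 in the CGE, and for Kctd4, at 0.489 and 3.08 CPM. They were near each other for Cacng3, at 1.26 and 1.33 CPM, and for Prkcq, at 1.05 and 0.997 CPM.

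On the CGE side stood Nr2f2, Nrp2, A830082K12Rik, Nr2f1, Lgi1, Zdbf2, Pcdh17 and Calb1. Nr2f2 (chr7:70351944-70366735) was at 5.84 CPM in LGE members and 473 CPM in CGE members, a ratio of 0.0123 (0.00400 to 0.0289), and it was detected in 3 of 138 and 237 of 335 members. Nr2f1 was 8.91-fold lower in the LGE (7.48 to 10.7) and Nrp2 17.1-fold lower (7.24 to 53.3). Calb1 was at 67.7 against 368 CPM. For these genes Lhx6-negative cells were also lower in the LGE, with Nr2f2 at 1.05 CPM in the LGE and 695 CPM in the CGE, Nr2f1 at 60.3 and 1487, and Nrp2 at 2.65 and 89.6. Within members, Nr2f2 and Nrp2 occurred together in 99 CGE cells and 1 LGE cell, and Nrp2 without Nr2f2 in 12 CGE cells. High-Nes cells of the CGE held Nr2f2 at 398 CPM, and the part of free RNA in the CGE values was not tested.

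Further listed genes past 2-fold higher in the LGE were Cux2 (3.68-fold), Meis2 (3.24), Robo2 (2.82), Etv1 (2.56), Nefm (2.38), Foxp1 (2.05) and Top2a (2.04). Lower in the LGE were Fabp7 (4.07-fold), Efna5 (3.59), Rbfox3 (2.36), Ntrk2 (2.30), Meg3 (2.17), Nkx2-1 (2.05) and Vim (2.04). Among listed genes within 2-fold, Mapt was at 846 and 855 CPM, Erbb4 at 201 and 227, Slc32a1 at 306 and 261 and Zeb2 at 783 and 827. Maf was 1.92-fold higher in the LGE (1.70 to 2.16). The interval for Nkx2-1 was 1.51 to 2.84. The maturation median was -0.02 and the median of all genes 0.01.

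Levels among members also followed the peptide genes that had let the cells in. Members with both peptides had more Mapt than those with Npy alone, at 988 against 604 CPM in the LGE and 1125 against 554 CPM in the CGE, and more Ina, at 784 against 436 and 1278 against 686 CPM. Nkx2-1 in the LGE was at 178 CPM with Sst alone, 57.2 with Npy alone and 16.2 with both, and in the CGE at 67.6, 142 and 112 CPM, so its order over the 3 classes was not the same in the 2 regions. Lhx8 in the LGE was at 130, 118 and 23.2 CPM. These classes use the rule genes and hold between 23 and 156 cells, with median depths of 6600, 5742 and 6180 UMIs in the LGE and 6388, 6906 and 7295 in the CGE, and the part of depth was not tested.

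Cells with Lhx6 but neither peptide, which the rule left out, were set beside them. Their Nxph1 was at 386 CPM in the LGE (53 cells) and 286 CPM in the CGE (293 cells), below the members and above the Lhx6-negative cells. Their Nkx2-1 was at 55.1 and 127 CPM, near that of the members, and at 771 CPM in the MGE. Lhx8 was at 199 CPM in these LGE cells, against 72.4 CPM in LGE members.

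The 37 CTX gate cells gave values on fewer UMIs. Nkx2-1 was at 4.98 CPM (0.126 to 27.8) and Lhx8 had no UMI, which allows up to 14.9 CPM. Nxph1 was at 852 CPM (729 to 990) and Mapt at 1455 CPM (1293 to 1632), both above the members of the LGE and CGE. Cxcr4 was at 59.8 CPM, detected in 11 of 37 cells.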

How the data were processed

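Single-cell 3′ libraries of wild-type E12.5 CTX, LGE, MGE and CGE were analysed, 1 per region. The authors deposited UMI counts per gene and barcode, made with Cell Ranger (3.0.2 in the file headers, 3.0.0 in the submitters' processing notes) on mm10. The annotation release and the use of strand are not given in the sources used here. Cells with more than 1500 and fewer than 4500 genes, under 5% mitochondrial and under 1% Hbb UMIs were kept, which left 4810 LGE, 3248 CGE, 4852 MGE and 3634 CTX cells with median UMIs from 6967 to 8250. The members and gene lists were chosen with earlier results of these data known. Counts were summed over the cells of a group and divided by their total UMIs (CPM). Intervals are exact at 95% (Poisson for levels, conditional binomial for ratios, Clopper-Pearson for shares), and since UMIs of 1 library are not replicates no test was made. Log2 ratios used a pseudocount of 1 CPM, genes at 50 CPM or more in either group, and a 2-fold limit. Named genes were the 10 on each side with the largest smaller ratio of LGE and CGE in the same direction, or 8 on each side between LGE and CGE members, besides list members. Some genes that met this rule are not reported here. Of 193 list genes 192 matched the 43346 features. Gene coordinates are from GENCODE M21. Python 3.11.15, numpy 2.4.6, scipy 1.17.1, pandas 2.3.3, scikit-learn 1.9.0 and matplotlib 3.10.9 were used. The code for the ratios was run on simulated independent Poisson counts. These leave out the spread between cells, so the run does not show how the intervals behave with it. Doublets were scored per library as the share of simulated pairs among 30 neighbours on 30 components of 2000 variable genes, at 0.8% per 1000 barcodes. Alternatives for the gate, depth, doublets, filter and pseudocount were tried.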

Additional observations from a re-analysis of the deposited data

Results flagged for a closer look

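For 4 genes the members of the LGE and CGE stood on opposite sides of the same MGE gate cells, each past 2-fold, and the difference was not tested since each region had 1 library. Nr2f1 had a log2 ratio to MGE gate cells of -1.27 in LGE members and 1.88 in CGE members. Nr2f2 had -3.69 and 2.43. When all groups were limited to Sst-positive cells, both genes were still past 2-fold lower in the LGE. In the CGE Nr2f2 was then past 2-fold higher and Nr2f1 was not. Pcdh17, a protocadherin gene, had -1.25 and 1.41. Rprm had the opposite order, at 1.39 in the LGE and -1.22 in the CGE.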

How the results depend on the processing

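Of the values that answer a comparison, 112 moved by less than their counting error or 1.5 times, 33 moved further and 1 was counted as a change of sign. That count leaves out other changes of sign given below. The cause of the moves was not tested. Requiring 2 UMIs gave gate shares of 3.78% (LGE) and 7.21% (CGE), thinning before gating 4.91% and 8.03%, and Dcx limits of 1.0 and 2.0 gave 5.16% and 9.50% in the LGE. The Nkx2-1 log2 ratio to the MGE (-3.39 in the LGE, -2.37 in the CGE) was -4.08 and -2.82 when thinned, -2.94 and -2.12 in mantle-gated cells (all groups limited to Nes, Hes5, Mki67, Ccnd1 and Ccnd2 below 0.5), -2.34 and -1.61 in Sst-positive cells, -4.21 in Npy-positive LGE cells, and in the CGE -2.15 with 2 UMIs and -2.18 against MGE cells with 0 Lhx8. The maturation median changed sign in Sst-positive LGE cells (-0.03) and was 0.26 in CGE ones, 0.17 and 0.42 in mantle-gated cells, and 0.33 in the thinned LGE. The migration median was -0.30 and 0.05 in Sst-positive cells and -0.36 in the thinned LGE. In the LGE both values had the opposite sign to the median of 0.17 with all cells. The MGE lineage median was 2.14 with Dcx above 2.0, 1.49 thinned, 2.41 in mantle-gated cells and 2.28 with a pseudocount of 10 in the LGE, and 1.47 in the CGE at 20 CPM. At 20 CPM the genes past 2-fold numbered 825 against 423 (LGE) and 292 against 150 (CGE) over Lhx6-negative cells, and 560 against 243 and 441 against 208 over the MGE, where the CGE had 93 in Sst-positive cells and 117 in mantle-gated cells. Single genes that changed sign in Sst-positive cells were Cxcr4 (-1.63), Epha5 (-0.10) and Erbb4 (-0.19) in the LGE and Maf (-0.08) in the CGE. Maf also changed sign in mantle-gated cells (-0.05). The intervals of Epha5 and Erbb4 in Sst-positive LGE cells included no difference. The limits to Sst-positive and Npy-positive cells were added after seeing the data.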
